A study of Homo sapiens and Mus musculus with 100 samples.

Results

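The data compare HepG2 cells given an AhR guide RNA with HepG2 cells given a control guide RNA while vitamin B2 was present. HepG2 cells come from a human liver tumour and still secrete many proteins of hepatocytes. Both groups were kept in control medium and sampled at day 12, with 3 libraries each (labelled Cont_Cont_gRNA and Cont_AhR_gRNA), so these are 6 of the 100 samples of the series. They were chosen by their labels alone, and all 28035 genes of the table were considered. The rest of the series covers vitamin B2 deprivation in HepG2, Caco-2, AhR-flox mouse hepatocytes and mouse liver, and HepG2 cells given inhibitors or Kyn. Used below for comparison are 6 libraries of the same table with the same 2 guides in medium labelled B2_minus, and libraries of 3 other tables, with 3 in each group. These are HepG2 at day 12 labelled DMSO or DMSO_AhRinh, a HepG2 time course with control groups at days 3, 6, 9 and 12 and a B2_minus group at day 12, and AhR-flox mouse hepatocytes in control medium labelled Ad_Cont or Ad_Cre. The hepatocytes carry a label of 4 weeks in the treatment field, which does not say whether it is an age or a duration. The column headers call the experiment an AhR KO. The guide's sequence and target exon, the way it was delivered, and whether the cells were a pool or 1 clone are facts not given in the sources used here. If each group is 1 line or clone, the guide and the line cannot be told apart. The labels do not state that the replicates are separate cultures. The p-values therefore reflect only how far these libraries spread, and that spread may be technical.

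AhR, the aryl hydrocarbon receptor, waits in the cytosol bound to HSP90 and other chaperones. On binding a ligand it moves to the nucleus, pairs with ARNT and binds short DNA elements near its target genes. CYP1A1, a monooxygenase that oxidises many of the receptor's ligands, is the best known target, and AHRR and TIPARP are targets that damp the receptor. In liver the receptor is known for the induction of drug-metabolising enzymes, and tryptophan breakdown products such as kynurenine are among its natural ligands.

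Libraries held 6801000 to 7177500 reads in the control gRNA group and 6504600 to 7245500 in the AhR gRNA group, as recovered from the deposited TPM. The 10 most abundant genes took 19.9% to 20.6% of the listed TPM in the control gRNA libraries and 17.8% to 18.7% in the AhR gRNA libraries. The mean chi-square per gene between replicates, about 1 where only sampling differs, was 2.56 to 5.55 among control gRNA libraries and 2.10 to 2.90 among AhR gRNA libraries, the higher values involving control gRNA replicate 3. Of 28035 genes, 11893 reached 1 TPM in at least 3 of the table's 12 libraries and were tested with limma. Below, differences are log2 fold changes on the log2(TPM + 1) scale, AhR gRNA minus control gRNA, with ± the standard error, n = 3 libraries a group, and p adjusted by Benjamini-Hochberg over all 11893 genes with a threshold of 0.05. This scale understates changes of low genes. TPM divides by transcript length while a 3′ kit does not read in proportion to it, so levels are compared between libraries, not between genes.

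CYP1A1 is shown first because its mRNA is the usual readout of AhR and its upstream bases hold the core letters of the receptor's element. The 250 bases before its RefSeq start site (GRCh38.p14, chr15:74725529-74725778, minus strand) are printed 5′ to 3′, with the letters of the AhR and ARNT core, GCGTG, in capitals.
CYP1A1: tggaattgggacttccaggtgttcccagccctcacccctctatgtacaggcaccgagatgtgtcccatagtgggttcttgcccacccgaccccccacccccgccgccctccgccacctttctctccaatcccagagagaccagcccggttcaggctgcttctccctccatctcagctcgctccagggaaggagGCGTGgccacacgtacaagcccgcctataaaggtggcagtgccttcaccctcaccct
The core was searched on both strands, and its only match there begins 57 bases before the start site. The deposited table's CYP1A1 transcript (NM_000499, chromosome 15, 74719542 to 74725610) starts 82 bases further upstream than the RefSeq start. The same letters are also 1 spelling of the hypoxia response core. Among all 35116 promoter entries, 32.2% held the core in these 250 bases, and 13 of the 26 entries of the 16 matched AhR targets did. A match is a description of letters, not of binding.

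CYP1A1 mRNA was lower in the cells with the AhR guide. It stood at 4.45, 4.40 and 3.75 TPM in the control gRNA libraries and at 1.84, 1.90 and 1.92 TPM in the AhR gRNA libraries. All AhR gRNA libraries lay below all control gRNA libraries, and the difference was -0.85 ± 0.12 (adjusted p = 0.000129). In B2_minus medium the same comparison ran from 36.2, 32.0 and 32.4 TPM to 1.83, 1.16 and 2.22 TPM, a difference of -3.68 ± 0.12 (adjusted p = 1.02e-09). With the AhR guide, CYP1A1 therefore stood near the same low level in either medium, while with the control guide it was much higher in B2_minus medium. The difference between the 2 guide effects was -2.83 ± 0.17 (adjusted p = 1.08e-06).

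AHR mRNA itself (NM_001621, chromosome 7, 17298652 to 17346151) did not differ detectably. The receptor's transcript stood at 4.54, 4.37 and 6.51 TPM with the control guide and at 4.48, 4.76 and 4.88 TPM with the AhR guide. The groups overlapped, with a difference of -0.09 ± 0.13 (adjusted p = 0.641), and without control gRNA replicate 3, the highest library, the sign turned (0.07). A guide edits DNA and need not lower the transcript, and a 3′ read away from the guide's site checks no edit, so these values do not check the label. ARNT, the partner of AhR on DNA, differed by -0.01 ± 0.11. Of the 9 tested genes of the receptor and its partners, 0 rose and 2 fell. That is 22.2% called, below the 36.7% called over all tested genes (23.3% higher and 13.4% lower). HSP90AB1, a chaperone that holds the unliganded receptor, fell by 0.21 ± 0.05 (adjusted p = 0.00477). NCOA1, a coactivator, fell by 0.22 ± 0.08 (adjusted p = 0.0449), but its adjusted p was above 0.05 in each of the 5 fits that left out control gRNA replicates 1, 2 or 3 or AhR gRNA replicates 1 or 2.

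The listed AhR targets moved in both directions. Of 18 listed genes 8 were tested, of which 3 rose and 3 fell with a median of -0.12, where 36.7% of all tested genes were called, 23.3% higher and 13.4% lower, and the median over all was 0.06. UGT1A6, which conjugates phenols with glucuronic acid, stood at 1.90, 2.78 and 1.23 TPM with the control guide and 0.566, 0.493 and 0.517 TPM with the AhR guide. It fell by 0.93 ± 0.17 (adjusted p = 0.000949). UGT1A1, the bilirubin conjugating enzyme, fell by 0.92 ± 0.18 (adjusted p = 0.00136). Both come from 1 locus and share their 3′ end, so a 3′ kit cannot tell them apart and they count as 1 measurement. In B2_minus medium UGT1A6 was lower with the AhR guide by -2.02 ± 0.17. NQO1, a quinone reductase that both AhR and NRF2 are known to induce, moved the other way. It rose from 81.3, 71.6 and 97.9 TPM to 145, 151 and 144 TPM, by 0.82 ± 0.08 (adjusted p = 5.78e-06).

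NFE2L2, which encodes NRF2, rose by 0.32 ± 0.07, and SLC7A5, a large amino acid transporter, by 0.33 ± 0.09. The SLC7A5 call was lost without control gRNA replicate 1 or 2 or AhR gRNA replicate 1 (adjusted p = 0.0543 to 0.0637) and under quantile normalization. TIPARP, the ADP-ribosylase that damps AhR, stood at 4.75, 3.47 and 4.35 TPM against 3.33, 3.89 and 3.48 TPM, with overlapping groups and a difference of -0.18 ± 0.11 (adjusted p = 0.236). ABCG2, an efflux pump, differed by -0.06 ± 0.12 (adjusted p = 0.744). The other 10 listed targets, among them CYP1A2, CYP1B1, AHRR and ALDH3A1, did not reach the level needed for the test.

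**Figure D1:**
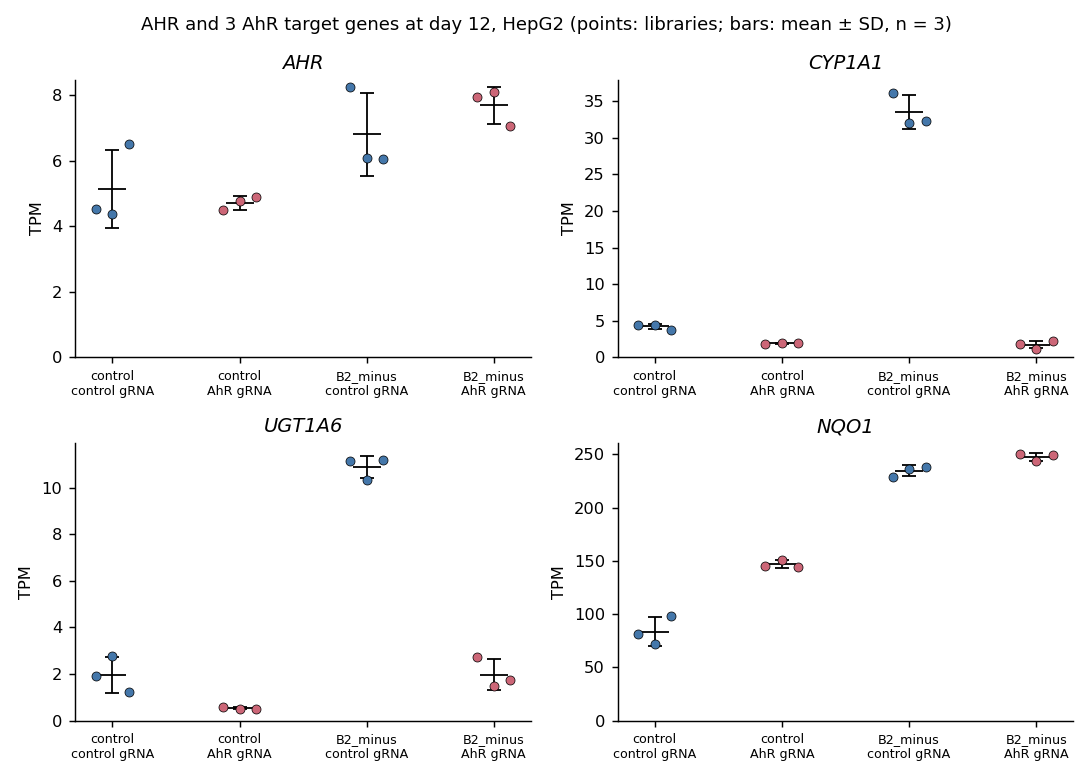
TPM of AHR, CYP1A1, UGT1A6 and NQO1 (vertical axes, each from 0) in every library of the 4 groups of the guide RNA table, named by medium and guide; points are libraries and bars the mean ± SD (n = 3). In control medium the 3 AhR gRNA libraries lie at 1.84 to 1.92 TPM for CYP1A1, below the 3 control gRNA libraries, while AHR overlaps between the groups.

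Across the transcriptome 2775 genes were higher and 1590 lower with the AhR guide, together 4365 of 11893 (36.7%). At unadjusted p under 0.05 there were 5356. Most differences were small, with 3181 of the 4365 (72.9%) under 1.5-fold. At least 2-fold differences were seen for 190 higher and 131 lower genes, and at least 4-fold for 25 and 10. In 2653 of the higher and 1544 of the lower genes the groups did not overlap, where over all tested genes 28.6% had every AhR gRNA library above and 17.9% every one below. The excess of higher genes depended on scaling. After quantile normalization 2042 were higher and 2143 lower, after scaling each library to its median 2053 and 2123, and with voom on recovered reads 3910 and 1281. Voom moved the median over all genes from 0.06 to 0.17, so small differences below are best read relative to these medians.

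The strongest increase was in metallothioneins, small cysteine-rich proteins that bind zinc and copper. Their promoters hold metal response elements, the sites of the zinc sensor MTF1. Of the 13 listed genes of metallothioneins and zinc transport all were tested, 9 rose and 2 fell, with a median of 2.07 against 0.06 over all genes. All 8 metallothioneins measured rose. They lie together on chromosome 16, between 56608533 and 56684196 in the deposited table. Of the 13 genes 7 had an entry in the RefSeq promoter table (GRCh38.p14). The 250 bases before the start site are shown for the 3 metallothioneins among them, because these genes moved together: MT2A at chr16:56608334-56608583, MT1X at chr16:56682220-56682469 and MT1H at chr16:56669564-56669813, all plus strand, with the metal response element core, TGCACNC or TGCGCNC on either strand, in capitals.
MT2A: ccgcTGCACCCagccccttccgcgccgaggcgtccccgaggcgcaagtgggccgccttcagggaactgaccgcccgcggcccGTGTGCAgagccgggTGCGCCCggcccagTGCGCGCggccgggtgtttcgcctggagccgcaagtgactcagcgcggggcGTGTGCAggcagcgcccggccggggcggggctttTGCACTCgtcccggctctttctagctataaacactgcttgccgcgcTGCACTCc
MT1X: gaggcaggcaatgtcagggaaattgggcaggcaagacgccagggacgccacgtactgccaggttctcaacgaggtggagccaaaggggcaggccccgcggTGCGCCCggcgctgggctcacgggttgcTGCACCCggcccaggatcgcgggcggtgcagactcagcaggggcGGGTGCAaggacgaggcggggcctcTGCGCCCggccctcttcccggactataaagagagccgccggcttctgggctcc
MT1H: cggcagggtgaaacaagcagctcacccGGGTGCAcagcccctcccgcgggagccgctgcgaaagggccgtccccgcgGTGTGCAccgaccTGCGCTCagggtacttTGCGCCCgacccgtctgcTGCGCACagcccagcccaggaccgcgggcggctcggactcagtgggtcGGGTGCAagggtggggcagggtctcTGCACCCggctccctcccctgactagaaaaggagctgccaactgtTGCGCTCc
The core occurred 7 times in MT2A, 4 times in MT1X and 8 times in MT1H. It was present in 24.8% of all promoter entries of this length, and of the listed genes SLC30A1 also held it. The AhR core occurred 1 time in the MT2A stretch, overlapping a metal response element core, and 0 times in MT1X and MT1H.

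MT2A, a main liver form, stood at 662, 570 and 600 TPM with the control guide and 2781, 2498 and 2420 TPM with the AhR guide. It rose by 2.07 ± 0.08 (adjusted p = 6.44e-09). MT1G stood at 100, 61.8 and 151 TPM against 1592, 1477 and 1347 TPM and rose by 3.89 ± 0.27 (adjusted p = 1.00e-05). MT1M went from 0.24, 0.466 and 1.58 TPM to 44.7, 44.4 and 38.7 TPM, the largest difference of the list (4.70 ± 0.28, adjusted p = 7.43e-07). In all of these the groups lay far apart, and control gRNA replicate 3 was the highest of its group for MT1G and MT1M. MT1F rose by 3.44 ± 0.19, MT1E by 3.17 ± 0.20, MT1X by 3.09 ± 0.15, MT1H by 2.69 and MT1A by 1.70. The genes are near-identical in parts, so reads could be split between them. SLC30A1, the zinc exporter that MTF1 is known to induce, rose by 0.54 (adjusted p = 0.0402), a call lost in 5 of the 6 fits without 1 library, all except that without control gRNA replicate 3, with 0.28 as its lowest value without control gRNA replicate 2. The zinc importers fell, SLC39A10 by 0.87 and SLC39A14 by 0.25, the latter not passing without control gRNA replicate 1 (adjusted p = 0.0503).

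**Figure D2:**
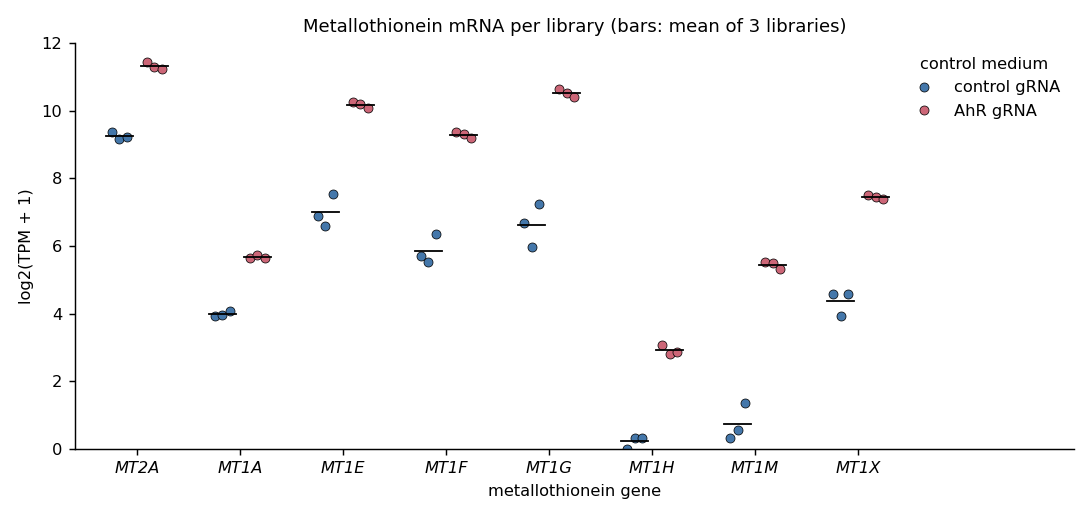
log2(TPM + 1) of the 8 metallothionein genes (horizontal axis) in the 3 control gRNA and 3 AhR gRNA libraries in control medium; points are libraries and bars group means. For each gene the AhR gRNA libraries sit above the control gRNA libraries, for MT2A at 2420 to 2781 TPM against 570 to 662 TPM.

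Genes of DNA replication and mitosis were higher with the AhR guide almost as a whole. Of 30 listed genes all were tested, 29 rose and 0 fell, with a median of 1.12. RRM2, the ribonucleotide reductase subunit made in S phase, stood at 2.53, 2.31 and 3.25 TPM against 13.8, 11.6 and 12.6 TPM and rose by 1.89 ± 0.12 (adjusted p = 1.33e-07). PCNA, the clamp of DNA polymerases, went from 30.1, 29.2 and 42.4 TPM to 87.0, 88.1 and 78.4 TPM (1.31 ± 0.11). CDK1, the kinase that drives entry into mitosis, went from 8.98, 8.89 and 10.2 TPM to 22.7, 24.8 and 26.2 TPM (1.30 ± 0.08). BIRC5, a subunit of the chromosomal passenger complex, rose by 1.29 ± 0.12. HIST1H4C, a histone gene of 387 bases that is not in the list, rose by 0.64 ± 0.07, its TPM being inflated by the short length. For each of these the groups did not overlap. CCNE2, a cyclin of the start of S phase, was the exception at 0.24 (adjusted p = 0.265).

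Since these genes moved together, 1 promoter of the list is shown. CDK1 has 2 entries in the promoter table, and the later start gives chr10:60778228-60778477, plus strand, with the CCAAT box in capitals. CCAAT boxes, bound by NF-Y, are known from many mitotic genes, and both matches lie on the other strand, where they read ATTGG.
CDK1: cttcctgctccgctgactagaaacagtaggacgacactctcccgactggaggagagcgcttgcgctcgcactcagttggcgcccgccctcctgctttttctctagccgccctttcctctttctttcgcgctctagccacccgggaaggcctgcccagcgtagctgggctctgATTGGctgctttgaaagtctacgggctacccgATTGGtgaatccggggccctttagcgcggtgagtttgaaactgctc
Of the 30 genes 22 had promoter entries, and 25 of their 28 entries (89.3%) held CCAAT on either strand, against 32.0% of all 35116 entries. An E2F site, written TTTGGCGC, TTTCCCGC, TTTGGCGG or TTTCCCGG, was in 8 of the 28 (28.6%), against 3.67% of all.

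Several genes of glucose handling were lower. Of 19 listed genes of gluconeogenesis and glucose handling 12 were tested, 0 rose and 8 fell, with a median of -0.54. The 8 were not all genes of glucose release, since PKLR, a pyruvate kinase of glycolysis, fell too (-0.56). PC (-0.19), PCK2 (-0.02) and PYGL (0.18), which serve glucose release, did not pass. G6PC, the phosphatase that releases glucose from hepatocytes, stood at 45.7, 52.5 and 35.9 TPM with the control guide and 4.17, 4.73 and 4.14 TPM with the AhR guide, and fell by 3.08 ± 0.15 (adjusted p = 4.39e-08). PCK1, the cytosolic enzyme that makes phosphoenolpyruvate from oxaloacetate, went from 53.1, 51.8 and 33.2 TPM to 9.22, 10.7 and 10.9 TPM (-2.03 ± 0.16, adjusted p = 1.21e-06). IGFBP1, a secreted binding protein of insulin-like growth factors, went from 1024, 1154 and 822 TPM to 195, 184 and 197 TPM (-2.36 ± 0.11, adjusted p = 7.32e-08). TXNIP, a glucose-induced inhibitor of thioredoxin, fell by 1.80 ± 0.08. No AhR gRNA library reached the lowest control gRNA library for G6PC, PCK1, IGFBP1 or TXNIP. Control gRNA replicate 3 was the lowest of its group for G6PC, PCK1 and IGFBP1, that is, nearest to the AhR gRNA libraries.

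Other genes among the 12 lowest were of several kinds. IGFBP3, another binding protein of insulin-like growth factors, went from 18.6, 20.6 and 10.3 TPM to 0.267, 0.078 and 0.383 TPM (-3.77 ± 0.22, adjusted p = 1.55e-07), the lowest value of all genes named. SLC5A3, the sodium and inositol cotransporter, fell by 2.28 ± 0.16, and AQP3, a water and glycerol channel, fell by 2.16 ± 0.20. ANGPTL4, an inhibitor of lipoprotein lipase, fell by 1.98 ± 0.15, TFF1, a trefoil peptide, fell by 2.04 ± 0.33, FILIP1L by 1.96 ± 0.12 and the mitochondrial carrier SLC25A47 by 1.83 ± 0.14. IER3, an immediate early gene, and its antisense partner IER3-AS1 both fell by 1.86 ± 0.14. They overlap, and without a stated strand setting their reads cannot be told apart.

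Of the 12 highest genes past 10 TPM, 5 were the metallothioneins MT1M, MT1G, MT1F, MT1E and MT1X, and HPX was another. The other 6, SNAR-G2, SNAR-D, SCARNA18, SNORA67, MIR7703 and SNORA80E, are short RNAs without a known poly(A) tail of their own, often within other genes. SNORA67 rose by 2.64 ± 0.17, from 10.8, 11.2 and 10.1 TPM to 84.0, 78.5 and 56.5 TPM. The remaining 5 had standard errors of 0.35 to 0.70, and TPM inflates the values of such short transcripts.

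Hypoxia and glycolysis genes, which HIF1 is known to induce, were lower. Of 24 listed genes 23 were tested, 0 rose and 15 fell, with a median of -0.35. EGLN3, the prolyl hydroxylase that feeds back on HIF, went from 7.81, 9.63 and 6.19 TPM to 1.51, 0.787 and 0.875 TPM (-2.11 ± 0.15, adjusted p = 3.78e-07). CA9, a surface carbonic anhydrase, went from 17.5, 20.1 and 14.0 TPM to 5.72, 5.61 and 3.86 TPM (-1.59 ± 0.17). NDRG1 fell by 1.35 ± 0.15 and ADM, the vasodilator adrenomedullin, by 1.28 ± 0.15. The count of members that fell was 13 to 18 on leaving out 1 library.

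Secreted plasma proteins of hepatocytes were mostly lower. Of 27 listed genes 25 were tested, 1 rose, SERPINC1, which encodes antithrombin (0.40 ± 0.09), and 17 fell, with a median of -0.34. AHSG, fetuin A, went from 5990, 6051 and 5345 TPM to 2936, 2711 and 2928 TPM (-1.02 ± 0.05, adjusted p = 3.00e-08). PLG, plasminogen, was low throughout and fell by 1.15 ± 0.14. C3, the central complement protein, fell by 0.71 ± 0.05. ALB, serum albumin, went from 13001, 12538 and 12344 TPM to 8010, 8831 and 9132 TPM (-0.55 ± 0.06, adjusted p = 8.51e-06), and AFP, the fetal serum protein, fell by 0.48 ± 0.06. Under quantile normalization ALB (-0.26, adjusted p = 0.115) and AFP (-0.08, adjusted p = 0.319) no longer passed, while the count for the list stayed within 1.5 times. Of 12 hepatocyte marker genes, all tested, 2 rose and 5 fell, and their summed level was 36626 to 37966 TPM with the control guide and 27895 to 29508 TPM with the AhR guide. In bulk samples fewer cells of a type and less RNA per cell cannot be told apart.

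Markers of other cell types were mostly at 0 or under the level for the test. Of 6 endothelial markers 0 were tested, with CDH5 and CLEC4G at 0 in all 6 libraries and summed levels of 0.36 to 0.481 TPM with the control guide and 0.27 to 0.418 TPM with the AhR guide. Of 7 stellate and fibroblast markers only ACTA2 was tested and rose by 0.74 ± 0.11, with COL3A1, DCN and LUM at 0 and sums of 18.0 to 25.9 TPM against 33.9 to 38.8 TPM. Of 8 macrophage and leukocyte markers 3 were tested, of which CD14 fell by 0.79 and CD68 by 0.65, with PTPRC, CD163, MARCO and CD3E at 0 and sums of 763.5 to 834 TPM against 755.5 to 818 TPM. Nearly all of these sums was LYZ, lysozyme, at 820, 771 and 749 TPM against 748, 811 and 783 TPM, with overlapping groups and a difference of 0.00 ± 0.06 (adjusted p = 0.986). Of 7 colon epithelium markers 1 was tested and 0 were called, with sums of 22.6 to 24.8 TPM against 19.3 to 24.3 TPM and CDX1, SI and MUC2 at 0. Of 5 markers of embryonic kidney and fibroblast-like lines 1 was tested and 0 were called, with sums of 5.65 to 6.60 TPM against 4.96 to 5.84 TPM and VIM at 0. Of 7 cholangiocyte markers 3 were tested and 1 rose, with sums of 125 to 134 TPM against 151 to 163 TPM and MUC1 at 0. The riser was KRT19, a bile duct keratin, from 7.14, 9.77 and 10.4 TPM to 28.3, 27.3 and 24.9 TPM (1.47 ± 0.11).

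Growth factor and immediate early genes were lower. Of 23 listed genes of EGF receptor ligands and MAPK feedback 20 were tested, 0 rose and 11 fell, with a median of -0.38. JUN, a subunit of AP-1, went from 32.4, 37.0 and 37.5 TPM to 11.9, 14.5 and 12.7 TPM (-1.39 ± 0.07, adjusted p = 4.22e-08). EGR1, an immediate early transcription factor, fell by 1.07 ± 0.22, DUSP1, a MAP kinase phosphatase, by 1.02 ± 0.08 and JUNB by 0.81 ± 0.10. Of 12 tested genes of NF-kB and chemokines 0 rose and 5 fell (median -0.25). The share called was 55% for the EGF receptor and MAPK list, 41.7% for NF-kB and chemokines and 53.8% for YAP targets. Over all tested genes 36.7% were called, 23.3% higher and 13.4% lower. CCL20, the ligand of CCR6, fell by 0.87 ± 0.07 and CX3CL1, fractalkine, by 0.39 ± 0.07. Of 13 tested YAP targets 1 rose, F3 (0.44), and 6 fell (median -0.26), with CTGF, a secreted matrix-associated protein, at 80.2, 81.4 and 103 TPM against 33.2, 31.5 and 35.8 TPM (-1.36 ± 0.08). The F3 call was lost without replicate 1 or 2 of either group (adjusted p = 0.0581 to 0.178).

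Matrix genes were split, with 5 higher and 5 lower of 17 tested (median 0.04). FN1, fibronectin, fell by 0.94 ± 0.09, while SPARC, a collagen-binding glycoprotein, rose by 1.61 ± 0.14. Of 17 tested biliary, progenitor and S100 genes 6 rose and 2 fell (median 0.11). The share called was 58.8% for the matrix list and 47.1% for the biliary list. Over all tested genes it was 36.7% (23.3% higher and 13.4% lower). SPP1, osteopontin, rose from 11.8, 13.8 and 17.9 TPM to 46.1, 49.0 and 47.4 TPM (1.67 ± 0.10). S100P, a calcium-binding protein, fell by 1.14 ± 0.05.

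**Figure D3:**
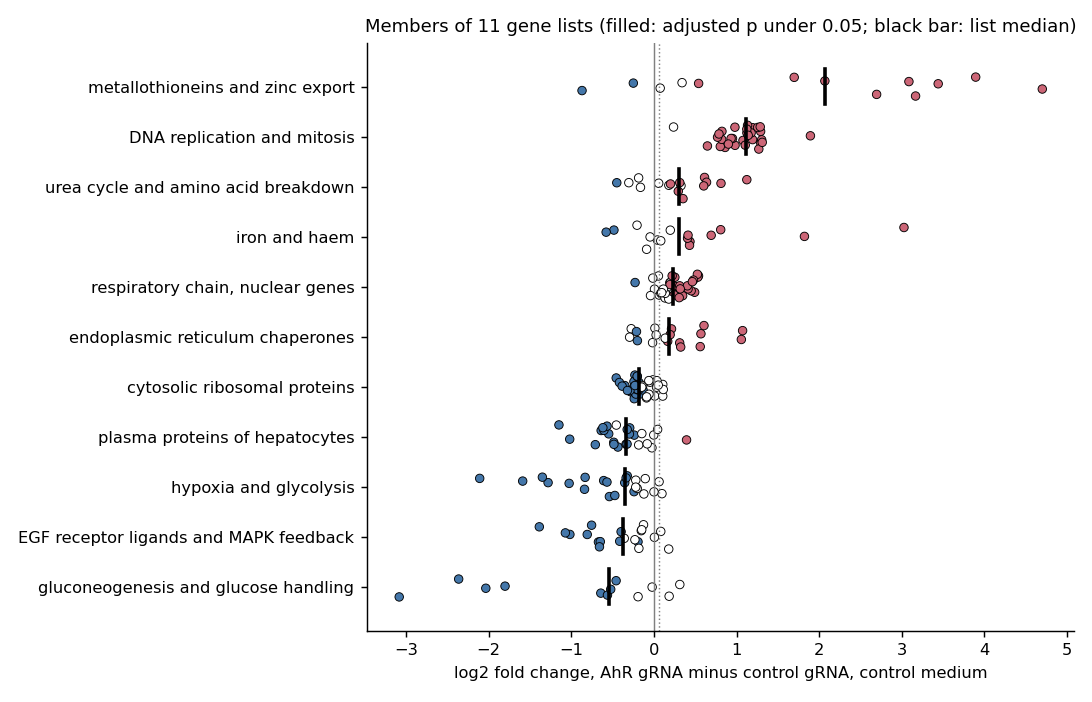
log2 fold change, AhR gRNA minus control gRNA in control medium (horizontal axis), of each tested member of 11 gene lists; filled points passed the test, open points did not, black bars are list medians and the dotted line is the median over all genes (0.06). The medians run from 2.07 for metallothioneins to -0.54 for gluconeogenesis.

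Antioxidant and conjugating enzymes did not move as a block. Of 21 tested NRF2 targets 9 rose and 7 fell (median -0.02). FTL, the ferritin light chain, went from 1310, 1354 and 1570 TPM to 2613, 2392 and 2396 TPM (0.81 ± 0.06), whereas AKR1C3, a ketosteroid reductase, fell by 0.74 ± 0.06. The AKR1C genes are close copies and may share reads. Of 17 tested glutathione transferases and glucuronidation enzymes 8 rose and 4 fell (median 0.30). GSTA1 and GSTA2, alpha class glutathione transferases that are near-identical copies, rose by 1.25 ± 0.10 and 1.34 ± 0.14. UGT2B4, a bile acid glucuronosyltransferase, fell by 1.44 ± 0.12. Of 9 tested genes of cytochrome P450 and nuclear receptor targets 1 rose, CYP2W1 (0.34), and 3 fell. The share called was 76.2% for NRF2 targets, 70.6% for the conjugating enzymes and 44.4% for the P450 list. Over all tested genes it was 36.7% (23.3% higher and 13.4% lower). The CYP2W1 call was lost without any control gRNA replicate and without AhR gRNA replicate 1 or 3 (adjusted p = 0.0665 to 0.146).

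Iron and haem genes were higher more often, with 8 risen and 2 fallen of 16 tested (median 0.30). HPX, haemopexin, which clears free haem from plasma, went from 3.05, 2.20 and 5.00 TPM to 35.1, 30.8 and 35.6 TPM (3.03 ± 0.18, adjusted p = 4.46e-07). HAMP, the iron hormone hepcidin, went from 3.05, 1.74 and 3.72 TPM to 13.3, 10.3 and 13.4 TPM (1.82 ± 0.17). The groups of both genes lay apart. Of 14 tested acute phase genes 4 rose and 5 fell, with SAA4 higher by 0.77 ± 0.08 and ITIH3, an inhibitor heavy chain, lower by 1.24 ± 0.09. The share called was 62.5% for iron and haem genes and 64.3% for acute phase genes, against 36.7% over all tested genes.

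In metabolism, 9 of 16 tested genes of the urea cycle and amino acid breakdown rose and 1 fell, ARG1, arginase (-0.45), with a median of 0.30. With a pseudocount of 0.1 the ARG1 call was lost (adjusted p = 0.0703). ASS1, argininosuccinate synthase, rose by 0.64 ± 0.09 and GNMT, glycine N-methyltransferase, by 1.12 ± 0.17. Of 24 tested cholesterol genes 11 rose and 3 fell (median 0.10). MVD and MVK, enzymes of the mevalonate pathway, rose by 0.74 ± 0.09 and 0.58 ± 0.08. Of 21 tested genes of fatty acid and triglyceride synthesis 7 rose and 3 fell, with DGAT2, a triglyceride-forming acyltransferase, higher by 0.77 ± 0.11. In the respiratory chain 22 of 37 tested nuclear-encoded subunits rose and 1 fell, UQCRC2 of complex III (-0.23), with a median of 0.23 and small changes such as NDUFA2 (0.54 ± 0.06) of complex I and COX8A (0.49 ± 0.05) of complex IV. UQCRC2 did not pass without control gRNA replicate 2 (adjusted p = 0.0531) or with voom (adjusted p = 0.0687). Of 40 tested cytosolic ribosomal proteins 0 rose and 23 fell, with a median of -0.18, RPL15 at -0.46 ± 0.05 and RPL4 at -0.42 ± 0.06. With voom on recovered reads 14 ribosomal proteins fell. Of 18 tested endoplasmic reticulum chaperones 10 rose and 2 fell (median 0.18), with SDF2L1 higher by 1.06 ± 0.11 and CALR, calreticulin, by 0.61 ± 0.05. Under quantile normalization 6 of these rose. The share called was 62.5% for the urea cycle list, 58.3% for the cholesterol list and 47.6% for the fatty acid list. It was 62.2% for the respiratory chain, 57.5% for ribosomal proteins and 66.7% for chaperones. Over all tested genes it was 36.7% (23.3% higher and 13.4% lower).

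The share of kynurenine pathway genes called was near that over all genes. Of 10 tested kynurenine pathway genes 4 rose and 0 fell (40% called), against 36.7% called and 23.3% higher over all genes. QPRT, which makes the NAD precursor from quinolinate, stood at 113, 109 and 119 TPM against 182, 172 and 165 TPM and rose by 0.60 ± 0.05 (adjusted p = 2.54e-06). KYNU, kynureninase, rose by 0.44 ± 0.13, KYAT3, a kynurenine aminotransferase, by 0.29 ± 0.09 and HAAO, which precedes QPRT in the pathway, by 0.24 ± 0.08. These 3 calls were weak, and under quantile normalization none of them passed (adjusted p = 0.0649, 0.0558 and 0.171). KYNU did not pass without control gRNA replicate 2 or AhR gRNA replicate 2 (adjusted p = 0.0848 and 0.0791), KYAT3 without replicate 1 of either group (adjusted p = 0.0733 and 0.0626), and HAAO without control gRNA replicate 2 or any AhR gRNA replicate (adjusted p = 0.0673 to 0.161, with a difference of 0.15 without control gRNA replicate 2). TDO2, IDO1 and IDO2, which open the tryptophan ring, did not reach the level for the test. Of 4 tested genes of riboflavin transport and flavin synthesis 1 fell, RFK, the riboflavin kinase that makes FMN, from 12.5, 13.2 and 11.5 TPM to 8.97, 9.34 and 9.24 TPM (-0.39 ± 0.09, adjusted p = 0.00258). Of 15 tested FAD dehydrogenases of fatty acid and amino acid oxidation 7 rose and 2 fell (median 0.18). The share called was 25% for the riboflavin list, below that over all genes, and 60% for the FAD dehydrogenases.

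The other lists mostly had calls in both directions. Between 40% and 71.4% of their tested genes were called, against 36.7% over all genes (23.3% higher and 13.4% lower). Among p53 targets 6 of 21 rose and 7 fell, with GDF15, a stress-induced cytokine, at 914, 1052 and 910 TPM against 420, 445 and 468 TPM (-1.11 ± 0.07). Interferon response genes numbered 6 higher and 7 lower of 25, with GBP2, a guanylate-binding protein, at -1.65 ± 0.16. In the integrated stress response 5 of 24 genes rose and 6 fell, of 14 heat shock proteins 2 and 5, of 16 PPARA targets 3 and 6, and of 17 apolipoprotein genes 4 and 4. Bile acid genes were 6 higher and 4 lower of 14, with BAAT, which conjugates bile acids, lower by 1.82 ± 0.18. Liver transcription factors were 4 higher and 9 lower of 21, NR2F1 being lower by 0.82 ± 0.06, Wnt targets 5 and 1 (NOTUM, -0.54) of 13, and genes of inflammasome, NAD and tryptophan transport 1 (PARP1, 0.33) and 2 of 7. Of 9 imprinted growth genes 1 rose, PEG10 (0.44 ± 0.05), and 5 fell, among them IGF2, a fetal growth factor, from 2818, 3003 and 2494 TPM to 1247, 1206 and 1192 TPM (-1.19 ± 0.06). INS-IGF2, a readthrough transcript that overlaps it, carries nearly the same values and is not a separate measurement. Of 5 tested neighbours of AHR on chromosome 7, 2 rose and 0 fell.

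The guide difference was set beside the same guide comparison in B2_minus medium, which uses none of the 6 libraries above. There 896 genes were higher and 533 lower, 12% of the 11893 (7.53% higher and 4.48% lower). The guide effects of the 2 media had a Pearson r of 0.45 across genes, a description only, since genes are not independent replicates. Of the 2775 genes higher in control medium 548 (19.7%) were also higher in B2_minus and 26 were lower there. Of the 1590 lower ones 280 (17.6%) were also lower and 77 were higher. Seen from B2_minus, 61.2% of its higher and 52.5% of its lower genes were called the same way in control medium. The effect itself differed between media in 1712 genes (14.4%), 733 (6.16%) with a higher and 979 (8.23%) with a lower value in B2_minus. Of the genes higher in control medium 844 had a lower effect in B2_minus and 10 a higher one. Of the lower ones 598 had a higher effect and 15 a lower one. The difference between media subtracts the effect in the 6 control medium libraries that picked these genes. Its direction was thus favoured beforehand, and these counts are a description.

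The groups of genes differed in how far the guide difference was also seen in B2_minus. In DNA replication and mitosis 23 of 30 genes also rose in B2_minus, with a median of 0.73, and CDK1 had nearly the same difference (1.19). The metallothioneins separated, with MT1G at 1.24 and MT1M at 1.37 in B2_minus but MT2A at -0.14 and MT1A at -0.33. With the control guide MT2A stood at 4463, 5492 and 4923 TPM in B2_minus, far above its 570 to 662 TPM in control medium, and with the AhR guide at 4474, 4642 and 4343 TPM. G6PC stood at 10.1, 10.5 and 9.05 TPM with the control guide in B2_minus and at 3.56, 3.05 and 5.24 TPM with the AhR guide, a difference of -1.16. PCK1 was low with either guide in B2_minus (1.08 to 1.28 and 0.749 to 1.42 TPM). ALB was lower with the AhR guide in control medium but higher in B2_minus (0.40), and LGALS3, galectin 3, was higher in control medium (1.05 ± 0.09) but lower in B2_minus (-0.89). ATP1B1, the beta subunit of the sodium pump, fell by 0.95 ± 0.07 in control medium and stood at 0.46 in B2_minus. NME7, which overlaps ATP1B1, carried similar values (-0.95 and 0.41), and reads of the pair cannot be told apart. IGFBP1 was lower in both media, with -1.70 in B2_minus. The difference that B2_minus makes with the control guide shares the 3 control libraries with the comparison described here, so only levels are set side by side and no overlap of the 2 is given.

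**Figure D4:**
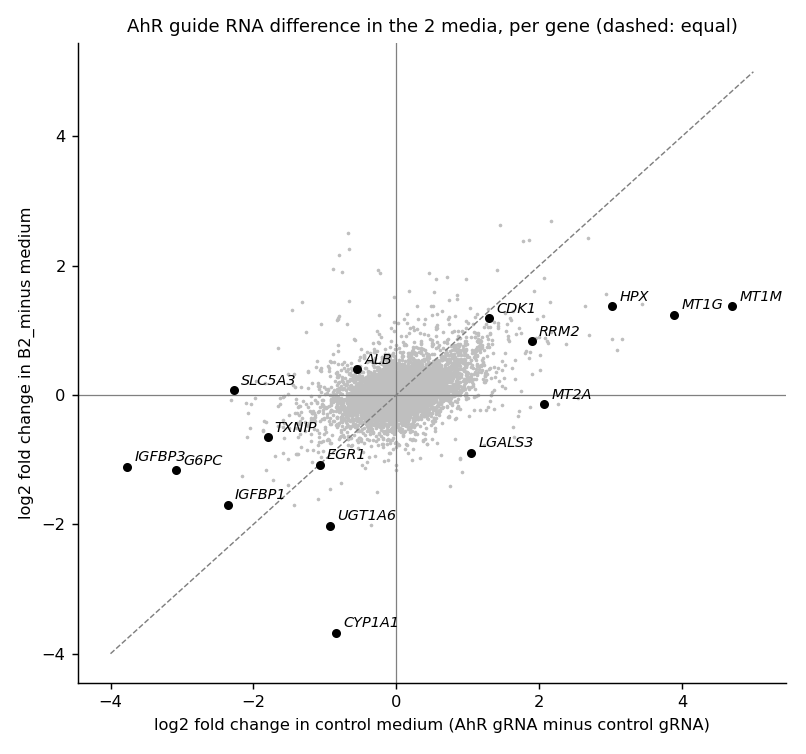
log2 fold change of AhR gRNA minus control gRNA in control medium (horizontal axis) and in B2_minus medium (vertical axis) for the 11893 tested genes; black points are named genes and the dashed line marks equal values. CYP1A1 lies far below the line (-0.85 and -3.68), the metallothioneins lie below it on the right, and CDK1 lies close to it (1.30 and 1.19).

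Other ways of acting on AhR, in libraries not labelled B2_minus, were set beside the guide. The series also holds HepG2 libraries at day 12 labelled Cont_AhRinh and Cont, without DMSO in the label, which were not compared here. In another table of HepG2 libraries at day 12, an AhR inhibitor under DMSO (3 libraries) against DMSO alone (3 libraries) gave 0 calls among 11798 tested genes with limma (0%), 520 at unadjusted p under 0.05, and a smallest adjusted p of 0.285. Voom on recovered reads gave 0 calls too, with 439 at unadjusted p under 0.05. CYP1A1 there stood at 1.73 TPM with DMSO and 1.06 TPM with the inhibitor, a difference of -0.41 ± 0.17 (adjusted p = 0.999), and MT2A differed by -0.04 ± 0.16, G6PC by 0.03 ± 0.10 and CDK1 by 0.12 ± 0.11. The median standard error was 0.121, against 0.103 for the guide. Across 11264 shared genes, the guide and inhibitor differences had a Pearson r of 0.01, given as a description. The reach of the inhibitor in these cells is unknown and the difference between inhibitor and guide was not tested.

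In AhR-flox mouse hepatocytes in control medium, Ad-Cre against Ad-Cont (3 libraries each) gave 3 calls among 12155 genes (0.0247%) with limma and 995 at unadjusted p under 0.05. The 3, which were picked out after their values were seen, were Cenpa (-0.79), a centromere histone, Gm35612 (1.40) and Mir8112 (1.23). Ahr differed by -0.28 ± 0.09 (adjusted p = 0.494), Mt1 by -0.17 ± 0.15, G6pc by -0.60 ± 0.21 and Cdk1 by -0.55 ± 0.12, none of which passed. Cyp1a1 did not reach the level for the test. How far Ahr was recombined is not known from these values, since a 3′ read away from a deleted part would not show it. The difference between Ad-Cre and the guide was not tested.

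Finally, the guide difference was compared with the difference between days in untreated HepG2, from the separate time course table. Between day 3 and day 12 of control medium, 20.1% of 12488 genes were higher and 46.8% lower at day 12. Of the 2767 genes higher with the AhR guide that were measured there, 2358 (85.2%) were lower at day 12 than at day 3, where 47.6% of all 11700 shared genes were. Of the 1560 genes lower with the guide 1014 (65%) were higher at day 12, where 20.5% of all were. In reverse, 42.3% of the genes lower at day 12 were higher with the guide, and 42.3% of those higher at day 12 were lower with the guide. Across genes the 2 differences had a Pearson r of -0.62 and a Spearman rho of -0.61, again as a description.

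Several of the main gene groups followed this pattern, while others were mixed. All 30 listed genes of DNA replication and mitosis were lower at day 12 than at day 3, with a median of -2.39, and CDK1 stood at 33.4, 41.6, 19.4 and 5.20 TPM at days 3, 6, 9 and 12. MT2A stood at 7773, 5280, 942 and 260 TPM on these days, and HPX at 51.7, 39.5, 13.9 and 2.39 TPM. Of 24 plasma protein genes 23 were higher at day 12 (median 1.21), with ALB at 3063, 5152, 11835 and 15931 TPM. G6PC stood at 0.0527, 0.628, 7.38 and 26.5 TPM and PCK1 at 0.671, 2.28, 15.5 and 36.0 TPM. JUN was lower with the guide (-1.39) and higher at day 12 (0.45 ± 0.07). Its list, EGF receptor ligands and MAPK feedback, was mixed between days, with 10 of 21 genes higher and 6 lower (median 0.20). Of 12 YAP targets 6 were higher and 5 lower at day 12 (median 0.21). CYP1A1 did not follow the pattern, being lower both with the guide and at day 12 (-0.51 ± 0.12). Cell number and density at harvest are not stated in the labels, and their part in the guide difference was not tested.

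**Figure D5:**
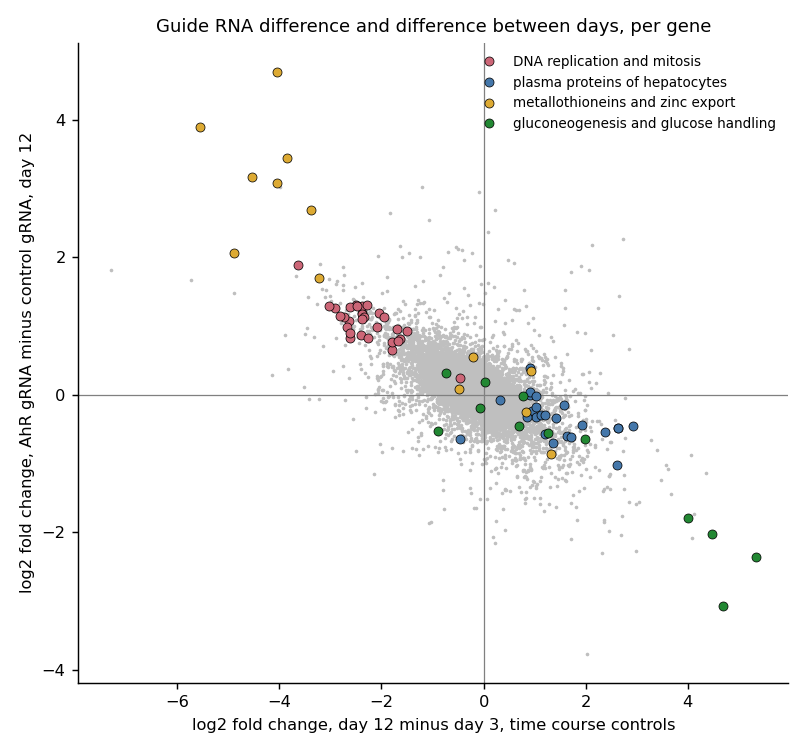
log2 fold change of day 12 minus day 3 in the time course controls (horizontal axis) and of AhR gRNA minus control gRNA at day 12 (vertical axis) for 11700 genes, with 4 gene lists coloured. Replication and metallothionein genes lie at the upper left, and G6PC, PCK1, IGFBP1 and TXNIP at the lower right.

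Vitamin B2 deprivation at day 12 of the same time course was compared in the same way. The deprivation difference and the difference between days share the day 12 control libraries, with opposite sign, so these comparisons are not independent. Over 12488 genes 34% were higher and 18.4% lower with deprivation. Of the genes higher with the AhR guide in control medium 57.5% were higher with deprivation, where 35.2% of all shared genes were, and of the lower ones 46.5% were lower, where 18.9% of all were. In reverse, 38.6% of the genes higher and 32.9% of those lower with deprivation were called the same way with the guide. The Pearson r across genes was 0.34. CYP1A1 went the other way, lower with the guide and higher with deprivation (2.45).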

How the data were processed

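Messenger RNA was measured with a QuantSeq 3′ kit, per the labels' protocols. All deposited values are TPM, which HOMER wrote, per the file headers. The submitters' processing notes also list STAR, Bowtie2 and hg38 without saying for which step. Read numbers were recovered from TPM and length, whole within 0.1 for 100% of low values of genes up to 3000 bases. Each table was fitted with limma 3.58.1 (R 4.3.3) on log2(TPM + 1), with 1 mean per group, a spread shared by all its groups, and trended, robust eBayes. Genes needed 1 TPM in 3 libraries. Named genes were AHR, ARNT and AhR targets, the 12 highest and 12 lowest of at least 10 TPM without overlap, members of the lists (mostly up to 4 called ones with the largest change, and single calls), the 6 with the smallest adjusted p for a difference between media, and 5 abundant genes. Some genes that meet this rule are not reported here. SNORA67 and the other short RNAs come from the 12 highest. The 38 lists, their members and the tests were chosen with earlier results of these data known. Alternatives were pseudocounts of 0.1 and 5, no filter and 5 TPM, quantile and median scaling, voom, plain eBayes, the 2 groups alone, a replicate block and leaving out each library. Scripts were tested on simulated data.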

Additional observations from a re-analysis of the deposited data

Results flagged for a closer look

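The guide effect differed between the 2 media, by limma's test of that difference with Benjamini-Hochberg adjustment over all genes, in 82 of the 115 named genes (highest adjusted p = 0.0384), where 14.4% of all genes did. Many of these genes were named for large values, some for this very difference, so their share is a description. The values are the log2 effect in B2_minus medium minus the log2 effect in control medium, with 46 above 0 and 36 below. Among AhR targets it was -2.83 for CYP1A1, -1.09 for UGT1A6, -1.13 for UGT1A1 and -0.74 for NQO1. For metallothioneins and zinc transporters it was -3.33 for MT1M, -2.65 for MT1G, -2.02 for MT1F, -2.30 for MT1E, -2.38 for MT1X, -1.76 for MT1H, -2.21 for MT2A, -2.03 for MT1A, 0.47 for SLC39A10 and 0.54 for SLC39A14. For genes of DNA replication it was -1.06 for RRM2, -0.89 for PCNA and -0.51 for HIST1H4C. For glucose handling and the genes lowest with the guide it was 0.66 for IGFBP1, 1.92 for G6PC, 1.90 for PCK1, 1.15 for TXNIP, 2.66 for IGFBP3, 2.35 for SLC5A3, 1.93 for ANGPTL4, 2.17 for FILIP1L, 0.67 for SLC25A47, 1.32 for IER3 and 1.31 for IER3-AS1. For hypoxia genes it was 1.99 for EGLN3, 1.55 for CA9, 0.91 for NDRG1 and 0.87 for ADM.

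For plasma proteins it was 0.94 for ALB, 0.94 for AHSG, 0.78 for PLG, 0.86 for C3, 0.78 for AFP, -0.53 for SERPINC1, 1.34 for ITIH3 and -0.71 for SAA4. For growth factor, chemokine and matrix genes it was 0.96 for JUN, 0.41 for DUSP1, 1.39 for CCL20, 0.91 for CX3CL1, 1.19 for CTGF and 1.30 for FN1. For antioxidant, conjugating and iron genes it was -0.81 for FTL, 0.67 for AKR1C3, 1.59 for UGT2B4, -1.30 for GSTA2, -0.95 for GSTA1, -1.65 for HPX and -1.14 for HAMP. For metabolic, ribosomal and chaperone genes it was -0.45 for MVD, -0.65 for DGAT2, -0.40 for NDUFA2, -0.34 for COX8A, 0.47 for RPL15, -0.80 for SDF2L1, -0.31 for CALR, -0.28 for QPRT, -0.45 for KYAT3, 1.41 for BAAT and 1.06 for ARG1. For growth and stress genes it was 0.57 for GDF15, 1.17 for GBP2, 0.90 for IGF2, 0.90 for INS-IGF2, 0.49 for PEG10, 1.10 for NR2F1 and 0.66 for NOTUM. For markers of other cells and biliary genes it was -1.43 for SPP1, -1.09 for KRT19, 0.84 for S100P, -1.94 for LGALS3, -1.08 for ACTA2, 0.77 for LYZ and 0.82 for CD14. For the remaining genes it was 1.41 for ATP1B1, 1.36 for NME7, -1.27 for SNORA67 and -2.58 for MIR7703.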

How the results depend on the processing

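The counts of higher and lower genes were 2781 and 1595 with a pseudocount of 0.1, 2700 and 1560 with 5, 2443 and 1586 without a filter, 2295 and 1265 with a filter of 5 TPM, 2372 and 1384 from the 2 groups alone, and 2728 and 1597 without trend and robust settings. Leaving out 1 library gave 2198 to 2976 higher and 1343 to 1530 lower. In these settings and under the scalings, 0 of the 4365 calls were called in the other direction. Same-numbered libraries did not deviate together (correlations -0.030, -0.035 and -0.021), and the main fit used no pairing. With 3 libraries a group these values cannot tell whether equal numbers mark a shared culture or day. The replicate block gave 2673 higher and 1540 lower.

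Genes whose effect differed between media numbered 2672 with voom, against 1712, and 1245 to 2192 on leaving out 1 library. Chaperones that rose numbered 6 under quantile normalization, and ribosomal proteins that fell 14 with voom, where the lists gave 10 and 23. AHR ran from -0.177 to 0.0651 on leaving out 1 library, turning sign without control gRNA replicate 3. ARNT ran from -0.0631 to 0.0901 and was 0.0699 with voom, and ABCG2 ran from -0.142 to 0.0616. LYZ ran from -0.0269 to 0.0381 and was -0.0717 with median scaling. None of these 4 passed in any of those fits, and the cause was not tested. CYP1A1 ran from -0.91 to -0.81. The inhibitor gave 0 calls in each setting. Of the other comparisons of a single gene with its alternatives, 1728 kept direction and side of the threshold and 63 no longer passed.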
